A study of Homo sapiens with 15 samples.

Results

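The comparison is between GW8510-treated PD45 cells and younger PD30 cells of WI-38, fibroblasts of human fetal lung that stop dividing after enough passages, over 606 genes that differed from the PD45 control in both. A gene was taken when its identifier stood in both deposited tables, 1 for GW8510-treated PD45 cells and 1 for PD30 cells, each set against the same PD45 control. The 606 genes are 32.8% of the 1845 genes in the GW8510 table, 21.3% of the 2845 in the PD30 table, and part of 4872 genes in the 4 tables of the series. The GW8510 group was PD45 cells labelled GW8510 and lipo3000 with NC, with no DMSO label. The PD30 group was labelled DMSO and lipo3000 without NC, and the PD45 control DMSO and lipo3000 with NC. Each group had 3 libraries, and the SRC siRNA groups of the series enter only where named. The labels gloss PD30 and PD45 as cells of generation 30 and 45 and leave NC unexplained, and all groups are 1 cell line that received the transfection reagent lipo3000. Between GW8510 cells and PD30 cells the compound, the passage, NC and DMSO differed together and cannot be told apart. The labels give neither dose nor duration of GW8510, and nothing in them says whether the 3 libraries of a group are separate cultures. All p-values here therefore reflect only how far these libraries differ, possibly for technical reasons.

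GW8510 is an inhibitor of cyclin-dependent kinases, the enzymes that drive the cell division cycle, and the series title names it as a rejuvenating compound acting through SRC, PAK and JAK kinases. Fibroblasts that have divided many times stop dividing and become senescent. They then express little of the machinery of DNA replication and mitosis, remodel their matrix, and secrete cytokines and proteases. The promoters of many mitotic genes carry the CHR element and CCAAT boxes, through which cell cycle regulators keep them silent in resting cells and active in dividing ones.

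For each gene the gap is the difference between PD30 and the PD45 control, and the share closed is the part of that gap that GW8510-treated PD45 cells covered, both on the scale of log2(signal + 1). A share of 100% puts GW8510 cells at the PD30 level, a share above 100% past it, and a negative share farther from PD30 than the PD45 control was. Signal is the authors' normalized expression value per gene and library, whose read depth is unknown. Signals are given as deposited or as mean ± SD (n = 3), and a share is followed by its standard error from the spread of the 9 libraries. GW8510 was compared with PD30 directly by limma's two-sided test on all 9 libraries, with Benjamini-Hochberg adjustment over the 527 genes whose mean signal was at least 1. The other 79 genes were below that minimum and were not tested. The 9 libraries resembled each other within groups, with Pearson's r across the shared genes from 0.987 to 0.993, and none stood apart. Of 20 fibroblast markers 7 were listed for GW8510 or PD30, VIM and PDGFRA among them, and their summed signal was 3886 to 4088 in the PD45 control. The 3 listed epithelial markers KRT8, KRT18 and KRT19 summed to 162 to 188, the 4 listed endothelial markers to 68.7 to 75.2, and the 2 listed blood cell markers to 51.8 to 62.6, over the same 3 libraries.

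Membership itself sets a floor under the share. The tables hold only genes with a fold change of at least 1.5, so on the authors' scale a gene with a 1.5-fold gap could enter only with a share of 100% or more in size. For a 2-fold gap that floor was 58.5%, for a 3-fold gap 36.9% and for a 6-fold gap 22.6%. The genes nearest the threshold were LACC1, whose log2 fold change in the authors' deposited table for GW8510 was -0.59, and SP100, with -0.59 in the authors' deposited table for PD30. Genes just outside were in only 1 table and were not analysed here.

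GW8510-treated cells lay on the PD30 side of the PD45 control for 438 of the 606 genes and on the other side for 168. The 438 comprised 177 genes that were higher both with GW8510 and at PD30, and 261 that were lower in both. The 168 comprised 84 genes lower with GW8510 and higher at PD30, and 84 the other way round. Both comparisons share the PD45 control libraries, so these counts describe the tables and carry no test. Of the genes the authors tested, 11.8% were listed for GW8510, 4.59% as higher and 7.26% as lower, and 15.3% for PD30, 8.24% as higher and 7.07% as lower. By share, 289 genes had between 0% and 100% of their gap closed, 149 had more, and 114 fell between 80% and 120%. The median share was 55.9% over all 606 genes, and the median standard error of a share was 15.6%.

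**Figure D1:**
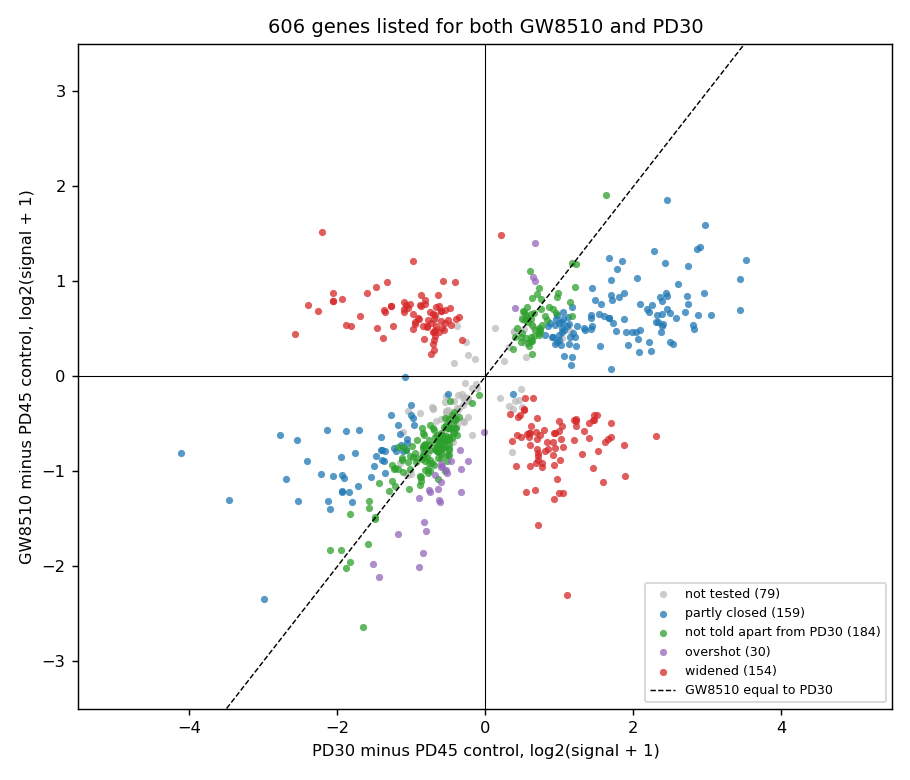
Each point is 1 of 606 genes, with PD30 minus PD45 control on the horizontal axis and GW8510 minus PD45 control on the vertical axis, both in log2(signal + 1) of group means, and the dashed line marks GW8510 equal to PD30. Genes higher in both groups fan out below the line toward large PD30 gaps (blue, partly closed), most genes lower in both groups lie along the line (green), and the 154 tested genes with opposite directions (red) fill the other quadrants.

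The direct comparison separated the genes into those still short of PD30, those at a level not told apart from it, and those past it. GW8510 differed from PD30 for 343 of the 527 genes tested, 65.1%, with 132 higher (25%) and 211 lower (40%) with GW8510. Among the 373 tested genes that moved toward PD30, 189 (50.7%) were called. Of the 373, 159 (42.6%) fell short of it and are called partly closed, 30 (8.04%) lay past it and are called overshot, and 184 were not told apart from it. For those 184 the 95% interval of the difference had a median half-width of 0.309 on the log2 scale, so differences of that size could pass unseen. All 154 tested genes that moved away from PD30, called widened, differed in this comparison, a result that their choice by opposite signs fixes. Over all 606 genes the GW8510 and PD30 libraries did not overlap for 401 (66.2%). The test as a whole is conditional on a choice that used the same libraries.

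Genes that were high in PD30 cells and genes that were low in them stood differently in this comparison. Of the tested genes higher at PD30, 109 were partly closed, 52 not told apart, 4 overshot and 76 widened. Of those lower at PD30, 50 were partly closed, 132 not told apart, 26 overshot and 78 widened. The median share was 49.1% for the 177 genes higher in both groups and 96.6% for the 261 lower in both. That distance depends in part on gap size and on scaling. For gaps of 1.5 to 2-fold the median share was 86.2% on the high side and 124% on the low side, and for gaps of 6-fold or more 29.3% and 50%. Computed from the log2 fold changes in the authors' deposited tables the same 4 medians were 101%, 113%, 36.4% and 35.3%, and the medians over all gaps were 61.3% on the high side and 90.1% on the low side. Relative to the deposited signals the authors' fold changes put GW8510 0.103 higher against PD30 on the log2 scale. With signals shifted by that amount 344 genes were called, 141 higher and 203 lower with GW8510.

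Mitotic genes moved toward PD30 with GW8510 but stayed well short of it. Of 112 genes listed for the spindle, kinetochore and chromosome segregation 47 were shared, and all 47 were higher at PD30 than in the PD45 control. In every one of them all 3 GW8510 libraries lay below all 3 PD30 libraries, against 246 of all 606 genes (40.6%). That background includes genes lower at PD30. Among genes higher at PD30, the GW8510 and PD30 libraries did not overlap for 122 of the 177 higher in both groups. They did not overlap for any of the 84 that were lower with GW8510. With GW8510, 43 of the 47 were higher than in the PD45 control and 4 were lower. Of the 46 tested, 42 were partly closed and 4 widened, none overshot and none was left not told apart from PD30. Of all 241 tested genes higher at PD30, 109 were partly closed and 76 widened. For gaps of 6-fold or more, 52 of the 54 genes higher in both groups were partly closed. The median share was 26.9% and the median distance left to PD30 was -1.61 on the log2 scale. The list had large gaps, with a median of 2.32 on that scale, and over all genes higher in both groups the median share was 38.5% for gaps of 3 to 6-fold and 29.3% for gaps of 6-fold or more, with the mitotic genes among them. For 39 of the 47 the GW8510 libraries lay between the other groups without touching either. In bulk RNA, fewer dividing cells and less of these transcripts per cell cannot be told apart.

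KIF20A, a kinesin of the central spindle, had signals of 3.99, 3.22 and 3.69 with GW8510, 30.2, 28.4 and 31.1 at PD30, and 1.87, 1.68 and 1.98 in the PD45 control. Its GW8510 libraries were above all PD45 controls and far below all PD30 libraries, with a share of 20.4% ± 2.31, and it was 8.23-fold lower with GW8510 than at PD30 (log2 difference -2.74, SE 0.12, adjusted p = 1.23e-09). BIRC5, the survivin subunit of the chromosomal passenger complex, had 8.61, 6.28 and 7.1 with GW8510, 40.9, 41.9 and 36.3 at PD30, and 2.46, 2.4 and 2.78 in the PD45 control. The groups kept the same order without overlap, and the share was 34.8% ± 3.49 (log2 difference -2.30, SE 0.13, adjusted p = 7.34e-09). CDC20, the activator of the anaphase-promoting complex, had 11.5, 7.11 and 9.48 with GW8510, 54.1, 50.3 and 55.6 at PD30, and 4.07, 4.07 and 3.87 in the PD45 control, with a share of 29.9% ± 5.27. PRC1, which bundles microtubules of the central spindle, had 7.63, 8.1 and 10.5 with GW8510, 48.3, 51.9 and 50.5 at PD30, and 5.44, 6.76 and 3.75 in the PD45 control. Its GW8510 libraries were all below PD30 and above the control, by a narrow margin to 1 control library, and the share was 21.04% ± 6.76. CCNB1, cyclin B1, closed 23.1% ± 3.24, and PKMYT1, the kinase that holds CDK1 inactive before mitosis, closed 57.8% ± 9.9, the highest value in the list.

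Of the 4 exceptions, SMC2 and SMC4 form the ATPase core of condensin, which compacts chromosomes, and CKAP2 is a microtubule-associated protein. SMC4 had signals of 2.51, 2.07 and 2.0 with GW8510, 12.3, 13.2 and 13.3 at PD30, and 4.54, 6.81 and 3.11 in the PD45 control. Each GW8510 library was below each control library, which in turn was below each PD30 library. CKAP2 had 6.07, 4.57 and 5.63 with GW8510, 17.2, 17.6 and 18.6 at PD30, and 9.13, 9.35 and 6.39 in the PD45 control, again with no overlap, and a share of -50.7% ± 25.1. SMC2 closed -85.1% ± 30.1, a negative share that means a move away from PD30. SMC4 and CKAP2 were also in the authors' deposited table for siSRC4, with log2 fold changes of -0.72 and -0.65 against the PD45 control. The siRNA tables are called here by their library columns, since the fold change column over the siSRC4 libraries is headed siSRC2 and the one over the siSRC2 libraries siSRC.

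The promoters of mitotic genes are printed for 3 of the partly closed genes and 2 of the widened ones, because the letters of these windows differ between them. Each window runs from 250 bases before to 50 bases after the gene start, from RefSeq on GRCh38.p14, written 5′ to 3′ on the gene's strand. Capitals mark the CHR motif TTTGAA and the CCAAT box CCAAT on either strand. KIF20A lies at chr5:138178862-138179161 on the plus strand, CDC20 at chr1:43358731-43359030 on the plus strand, PRC1 at chr15:90994486-90994785 on the minus strand, SMC4 at chr3:160399400-160399699 on the plus strand and CKAP2 at chr13:52455738-52456037 on the plus strand.
KIF20A: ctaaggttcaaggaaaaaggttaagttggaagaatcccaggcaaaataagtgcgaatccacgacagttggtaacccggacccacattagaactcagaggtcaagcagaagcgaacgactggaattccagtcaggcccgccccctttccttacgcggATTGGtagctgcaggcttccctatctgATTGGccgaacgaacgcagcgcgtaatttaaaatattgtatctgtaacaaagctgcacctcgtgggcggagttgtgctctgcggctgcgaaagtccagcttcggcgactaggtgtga
CDC20: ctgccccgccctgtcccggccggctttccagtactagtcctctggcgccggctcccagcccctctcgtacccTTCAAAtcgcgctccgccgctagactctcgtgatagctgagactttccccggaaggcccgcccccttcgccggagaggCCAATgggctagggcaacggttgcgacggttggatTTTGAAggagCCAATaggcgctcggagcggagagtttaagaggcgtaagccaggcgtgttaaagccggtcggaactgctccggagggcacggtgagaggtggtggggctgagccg
PRC1: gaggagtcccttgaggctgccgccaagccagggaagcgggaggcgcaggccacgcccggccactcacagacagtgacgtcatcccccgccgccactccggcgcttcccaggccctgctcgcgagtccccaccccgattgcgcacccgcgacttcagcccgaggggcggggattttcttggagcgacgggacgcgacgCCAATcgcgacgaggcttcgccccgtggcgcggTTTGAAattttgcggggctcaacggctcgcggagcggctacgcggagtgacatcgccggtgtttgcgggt
SMC4: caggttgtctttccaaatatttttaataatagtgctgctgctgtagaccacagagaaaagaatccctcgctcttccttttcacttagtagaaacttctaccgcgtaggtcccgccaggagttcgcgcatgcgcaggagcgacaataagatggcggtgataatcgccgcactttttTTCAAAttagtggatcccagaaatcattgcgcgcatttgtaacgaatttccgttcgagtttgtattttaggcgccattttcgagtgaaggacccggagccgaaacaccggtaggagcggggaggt
CKAP2: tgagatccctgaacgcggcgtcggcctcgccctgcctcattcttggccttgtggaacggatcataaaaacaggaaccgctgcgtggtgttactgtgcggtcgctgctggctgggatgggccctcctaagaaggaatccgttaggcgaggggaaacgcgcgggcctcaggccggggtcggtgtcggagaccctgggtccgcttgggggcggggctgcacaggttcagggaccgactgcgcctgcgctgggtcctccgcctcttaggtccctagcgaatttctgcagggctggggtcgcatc
CDC20 holds 2 CHR and 2 CCAAT matches, PRC1 1 of each, and KIF20A 2 CCAAT matches and no CHR match. SMC4 holds 1 CHR match and no CCAAT box, and CKAP2 holds neither. RefSeq windows were found for 432 of the 606 genes. Among the 34 mitotic genes higher with GW8510 that had a window, 20 held a CHR match (58.8%), 28 a CCAAT box (82.4%) and 18 both (52.9%). The shares among all 27305 RefSeq windows were 15.4%, 35.7% and 6.08%. Of the 3 mitotic genes lower with GW8510 that had a window, 2 held a CHR match and 0 a CCAAT box. A match is a run of letters in this window and not a shown binding site.

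Genes of DNA replication all moved toward PD30 and nearly all fell short of it. Their gaps were smaller than those of the mitotic genes, with a median of 1.19 against 2.32 on the log2 scale, so shares and distances of the lists are not set against each other here. Of 16 shared genes from this list 15 were higher at PD30, all 16 moved the same way with GW8510, 14 of 15 tested were partly closed and 1, E2F7, was not told apart. Over all tested genes higher at PD30, 109 of 241 were partly closed. The median share was 41.5%, or 55.3% from the authors' log2 fold changes, and the median distance left to PD30 was -0.84 on the log2 scale. MYBL2, a transcription factor that switches on late cell cycle genes, had 8.35, 6.48 and 9.25 with GW8510, 11.3, 11.2 and 15.4 at PD30, and 1.29, 1.61 and 1.5 in the PD45 control. Its GW8510 libraries were all below the PD30 libraries and well above the control, and its share of 75.7% ± 7.01 was the highest among the partly closed genes of the list (log2 difference -0.60, SE 0.16, adjusted p = 0.00438). FOXM1, its partner at mitotic promoters, had 6.98, 6.84 and 8.73 with GW8510, 25.2, 24.3 and 26.1 at PD30, and 3.75, 3.36 and 2.87 in the PD45 control, and closed 37.5% ± 4.37 without overlap to either group. CDT1, a licensing factor of replication origins, had 3.06, 2.96 and 3.87 with GW8510, 8.2, 7.76 and 7.29 at PD30, and 3.4, 2.6 and 2.82 in the PD45 control. Its GW8510 libraries overlapped the PD45 control on this scale and its share was 10.7% ± 10.5. From the authors' deposited tables, which list it as higher with GW8510, the share was 38.4%. CDC45, part of the replicative helicase, closed 32.6% ± 6.05. CHR matches were in 1 of 15 S-phase windows and CCAAT boxes in 10 of 15, and 3 of 15 held an E2F match, spelled TTTCGCGC or TTTGGCGC on either strand, against 1.18% of all windows.

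Deoxynucleotide supply was split. TK1, thymidine kinase of the salvage pathway, had 25.8, 23.4 and 22.5 with GW8510, 74.6, 67.5 and 72.2 at PD30, and 9.14, 7.74 and 9.23 in the PD45 control, and RRM2, the S-phase subunit of ribonucleotide reductase, had 19.6, 16.6 and 21.2 with GW8510, 55.4, 54.7 and 59.9 at PD30, and 7.92, 5.95 and 7.0 in the PD45 control. In both genes the groups stood apart in the same order, with shares of 46.9% ± 2.45 and 46.8% ± 3.98. RRM1, the other subunit of the same enzyme, had 11.9, 11.1 and 13.6 with GW8510, 33.3, 36.6 and 41.2 at PD30, and 22.4, 19.2 and 19.2 in the PD45 control. RRM1 was below the PD45 control in every GW8510 library and above it in every PD30 library, a share of -82.1% ± 19.7. The p53-inducible subunit RRM2B, which was low at PD30, closed 57.7% ± 8.43, with 20.2 ± 2.37 with GW8510, 13.2 ± 1.47 at PD30 and 35.5 ± 4.12 in the PD45 control. The 5 shared genes of recombination and Fanconi anaemia repair were all higher at PD30 and all partly closed, against 109 of 241 tested genes higher at PD30, with a median share of 37.0%. CHEK1, a checkpoint kinase, closed 37.0% ± 7.87. FANCA closed 49.1% ± 26.4, but its GW8510 libraries of 5.82, 2.62 and 5.6 with GW8510, 7.13, 7.23 and 7.08 at PD30, and 2.89, 2.89 and 2.39 in the PD45 control ranged widely. Its call was lost without GW8510 replicate 2 (limma adjusted p = 0.0877), PD30 replicate 1 (0.0559), replicate 2 (0.0533) or replicate 3 (0.0507), and with the authors' scaling (0.0513).

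**Figure D2:**
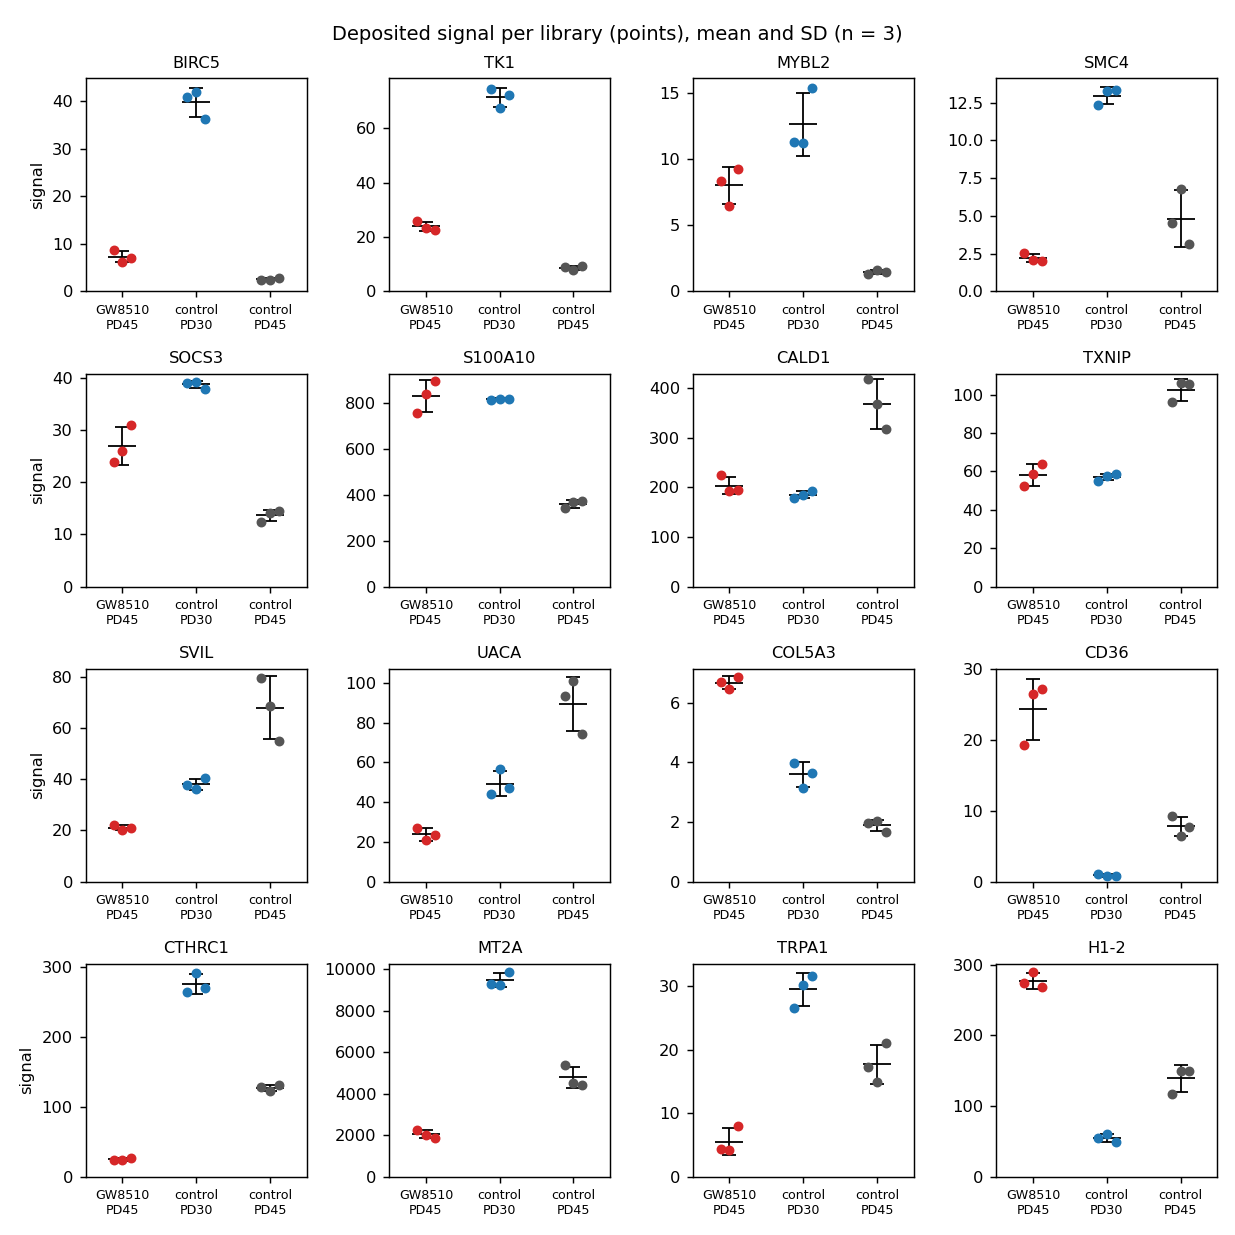
Deposited signal in each of the 9 libraries (points) with mean and SD (n = 3) for 16 genes, GW8510 at the left, PD30 control in the middle and PD45 control at the right of each panel. BIRC5, TK1 and MYBL2 show partial closure, and S100A10, CALD1 and TXNIP were not told apart from PD30. SVIL, UACA and COL5A3 pass the PD30 level, and SMC4, CD36, CTHRC1, MT2A, TRPA1 and H1-2 lie on the far side of the PD45 control.

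Nuclear structure and chromatin genes reached very different shares. LMNB1, the lamin whose loss marks senescent nuclei, had 2.42, 2.37 and 3.07 with GW8510, 14.4, 15.8 and 16.02 at PD30, and 2.07, 1.93 and 1.54 in the PD45 control. Its GW8510 libraries were just above the control and the share was 13.7% ± 4.46, or 22.7% from the authors' deposited tables. HMGA2, a chromatin protein of embryonic and proliferating cells, was low at PD30, with 51.3, 45.98 and 32.8 with GW8510, 64.7, 67.6 and 74.2 at PD30, and 212, 179.7 and 175 in the PD45 control. Every GW8510 library was below every PD30 library, the share was 147% ± 14.7, and the gene was overshot (log2 difference -0.68, SE 0.15, adjusted p = 0.00105). H2AZ1, a histone variant, closed 37.9% ± 4.21. H1-2, a linker histone, had 275, 289 and 268 with GW8510, 54.2, 60.4 and 49.6 at PD30, and 118, 150.2 and 149.6 in the PD45 control, so GW8510 cells were 5.06-fold higher with GW8510 than at PD30. H4C15, a core histone from a family of near-identical copies whose reads may be shared, had a share of 183% ± 77.5 and was not told apart from PD30 (log2 difference -0.45, SE 0.19, adjusted p = 0.0566). It was called lower with GW8510 without GW8510 replicate 3 (limma adjusted p = 0.0429) or PD30 replicate 3 (0.0346), and also with all libraries when the signal minimum was raised to 5 (0.0441). From the log2 fold changes in the authors' deposited tables its share was 85.7%, on the near side of PD30. CDKN2C, the CDK4 and CDK6 inhibitor p18, was higher at PD30 and closed 25% ± 2.95, while CCND2, cyclin D2, moved away, with 20.5, 20.8 and 19.4 with GW8510, 3.21, 3.21 and 3.13 at PD30, and 15.1, 12.8 and 13.4 in the PD45 control.

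**Figure D3:**
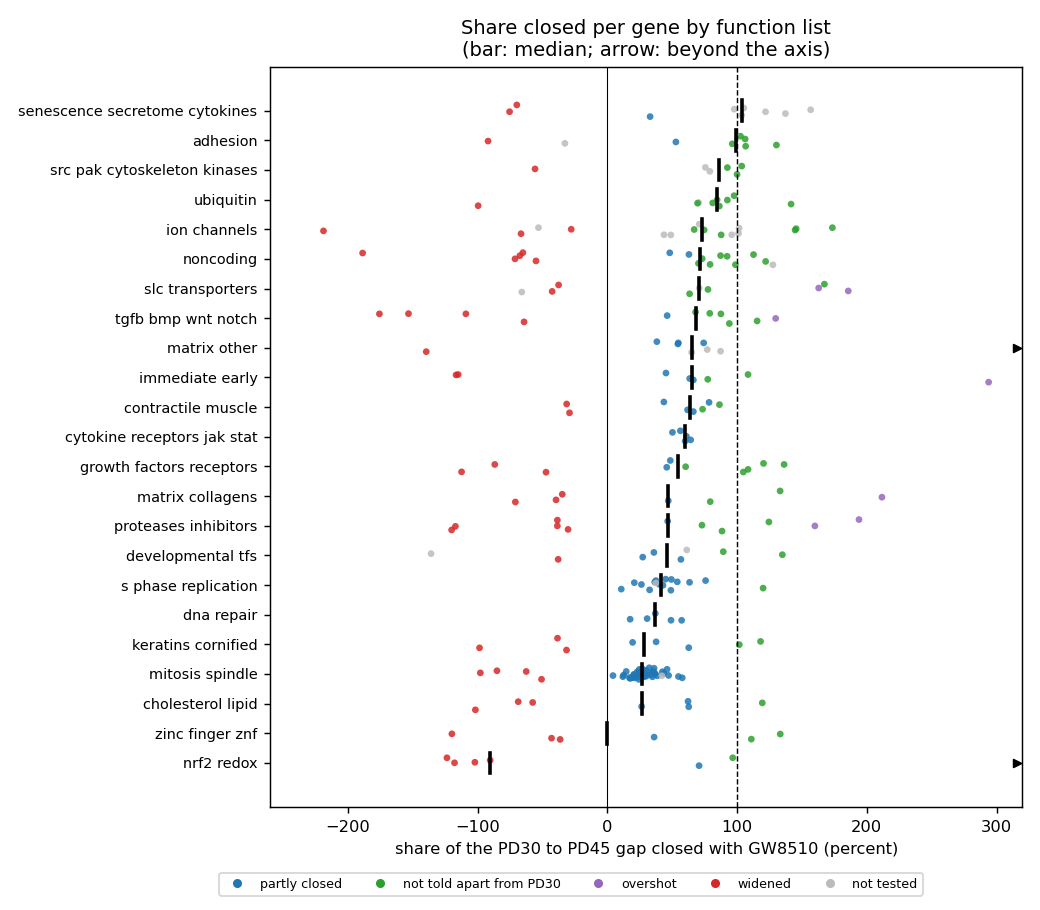
Share of the gap closed for each gene (points, percent) in the 23 function lists with at least 5 shared genes, colored by the class from the direct comparison, with the list median as a bar. Most mitotic and replication genes gather between 0% and 60%, most adhesion, ubiquitin and SRC and PAK related genes scatter about 100%, and the NRF2 and redox list has its median at -90.3%.

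Genes of the JAK-STAT pathway, one of the pathways in the series title, were few. All 5 shared genes from the list of cytokine receptors and JAK-STAT components moved toward PD30, as 438 of all 606 did. All 5 were partly closed, with a median share of 60.0% and a range from 50.2% to 64.2%. Of the 5, 4 were higher at PD30. Among all tested genes higher at PD30 that moved toward it, 109 were partly closed, 52 not told apart and 4 overshot. For gaps of 3 to 6-fold in that direction, 31 were partly closed and 3 not told apart, so 5 of 5 says little about this pathway. SOCS3, the feedback inhibitor of JAK signalling, had 23.8, 26.1 and 31.1 with GW8510, 39.1, 39.3 and 37.99 at PD30, and 12.4, 14.1 and 14.5 in the PD45 control. The groups did not overlap, and the share was 64.2% ± 7.69 (log2 difference -0.52, SE 0.11, adjusted p = 0.0013). PIM1, a kinase gene induced by STAT factors, had 6.14, 6.52 and 8.63 with GW8510, 15.3, 13.8 and 11.5 at PD30, and 3.52, 3.54 and 3.27 in the PD45 control, a share of 50.2% ± 8.54. SOCS1 and BCL3 were likewise higher at PD30 and closed 59.99% ± 19.1 and 56.3% ± 13.7. The call of BCL3 was lost without PD30 replicate 1 (limma adjusted p = 0.0545) and that of SOCS1 without GW8510 replicate 1 (0.113) or PD30 replicate 2 (0.0882) or 3 (0.0754). IL7R, the interleukin 7 receptor, was low at PD30 with 23.99, 20.7 and 21.04 with GW8510, 14.9, 13.8 and 17.6 at PD30, and 41.3, 37.7 and 33.6 in the PD45 control, and closed 60.96% ± 7.57.

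Secreted cytokines were mostly at signals too low to test. Of 9 shared genes 7 moved toward PD30, as 438 of all 606 did. Of these 7 genes 6 were below the signal minimum, so the list median of 104% rests on weak signals. TNFSF4, the OX40 ligand, had 5.35, 5.78 and 4.38 with GW8510, 1.61, 2.07 and 1.7 at PD30, and 7.25, 8.22 and 8.78 in the PD45 control, and closed 32.98% ± 6.63. TSLP, an epithelial and stromal cytokine, and CXCL12, a chemokine that retains blood stem cells, were higher at PD30 and lower with GW8510 than in the control. CXCL12 had 1.04, 0.69 and 1.05 with GW8510, 12.2, 10.9 and 11.4 at PD30, and 3.58, 3.23 and 2.67 in the PD45 control, a share of -69.8% ± 11.7, and TSLP closed -75.4% ± 35.98.

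The 6 shared genes of SRC, PAK and cytoskeletal signalling were all lower at PD30, and the list median share was 85.8%. Of the 6, 5 moved toward PD30, against 261 of all 345 genes lower at PD30. Those 261 had a median share of 96.6%. Only 4 of the 6 were tested, with 3 not told apart and 1 widened. ARHGAP5, a GTPase-activating protein, had 6.79, 5.39 and 6.33 with GW8510, 6.8, 7.11 and 5.1 at PD30, and 13.5, 11.8 and 8.88 in the PD45 control. The GW8510 and PD30 libraries overlapped throughout, and the difference between them was -0.03 on the log2 scale. ARHGAP22 and ARHGAP24, from the same family of GTPase-activating proteins, closed 100% and 92.5%, and neither was told apart from PD30. TIAM1 and VAV3, guanine nucleotide exchange factors for Rac, had shares of 75.6% and 79.1% at signals below the test minimum. LIMK2, a kinase downstream of PAK and ROCK that acts on cofilin, went the other way, with 37.7, 46.2 and 38.9 with GW8510, 20.2, 18.7 and 17.5 at PD30, and 33.3, 29.7 and 30.1 in the PD45 control. GW8510 cells were above both other groups in every library, a share of -55.7% ± 17.8, or -93.0% from the authors' deposited tables.

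Adhesion genes included several not told apart from PD30. All 8 shared genes were lower at PD30, and 6 moved toward it, against 261 of all 345 genes lower at PD30. Of 7 tested 5 were not told apart from it, against 184 of 527 over all tested genes, and the median share was 99.5%. Of all tested genes lower at PD30, 132 were not told apart, 50 partly closed, 26 overshot and 78 widened. The 261 genes lower in both groups had a median share of 96.6%. ITGB3, the beta 3 integrin, had 6.31, 6.85 and 5.38 with GW8510, 7.6, 7.33 and 7.91 at PD30, and 15.8, 14.5 and 14.3 in the PD45 control, a share of 130.3% ± 10.9. The GW8510 libraries were all below the PD30 libraries, yet the difference was not called (log2 difference -0.27, SE 0.12, adjusted p = 0.0602). Without GW8510 replicate 2 it was called (adjusted p = 0.0404). DSG2, a desmosomal cadherin, had 10.9, 10.6 and 11.97 with GW8510, 3.72, 3.51 and 3.86 at PD30, and 6.92, 6.99 and 6.22 in the PD45 control, a share of -91.95% ± 14.8. Among contractile genes CALD1, the actin-binding caldesmon, had 224, 192 and 194 with GW8510, 179, 184 and 192 at PD30, and 418, 368 and 318 in the PD45 control, a share of 86.4% ± 7.91, and was not told apart from PD30 (log2 difference 0.13, SE 0.11, adjusted p = 0.297). From the authors' deposited tables the share of CALD1 was 76.4%. On the authors' scaling it was 0.235 higher with GW8510 than at PD30, still without a call (limma adjusted p = 0.0677). SGCD, a sarcoglycan of the muscle membrane, was high at PD30 only, with 1.1, 1.42 and 1.08 with GW8510, 6.97, 8.52 and 6.63 at PD30, and 2.41, 1.75 and 1.93 in the PD45 control, and moved away. The contractile list of 8 genes had a median share of 64.1%. Of the 8, 4 were partly closed, 2 not told apart and 2 widened, against 159, 184 and 154 of all 527 tested genes.

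Among ubiquitin ligases and related enzymes, 8 of 9 shared genes moved toward PD30, against 438 of all 606. Of 8 tested 7 were not told apart from it, against 184 of 527 over all tested genes, and the median share was 84.6%, or 69.9% from the authors' log2 fold changes. Of the 9 genes 7 were lower at PD30, and the median gap was small, -0.61 on the log2 scale. Among the 113 genes lower in both groups with a gap of 1.5 to 2-fold, 84 were not told apart. SMURF2, a ligase that acts on TGF-beta signalling, had 88.5, 76.1 and 90.2 with GW8510, 75.2, 72.2 and 82.1 at PD30, and 165, 143 and 141 in the PD45 control. Its GW8510 libraries overlapped the PD30 ones, with a share of 84.6% ± 9.42 (log2 difference 0.15, SE 0.10, adjusted p = 0.233), and on the authors' scaling it was called 0.25 higher with GW8510 (adjusted p = 0.0475). NEDD4, a ligase for membrane proteins, closed 142% ± 28.3 and was not told apart (log2 difference -0.25, SE 0.14, adjusted p = 0.146), except without GW8510 replicate 1 (limma adjusted p = 0.0377). USP1, a deubiquitinase of the Fanconi anaemia pathway, was the single widened gene, with a share of -99.6%.

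Genes chosen for a share from 80% to 120% and the highest signal illustrate levels close to PD30. Their small differences from PD30 and the lack of a call follow largely from that choice. S100A10, the annexin A2 partner, had 754, 837 and 894 with GW8510, 811, 818 and 816 at PD30, and 341, 368 and 373 in the PD45 control. The PD30 libraries lay inside the GW8510 range, both groups were well above every control library, and the difference was 0.02 with SE 0.08. B2M, the light chain of MHC class I, had 2140.2, 2026 and 2196 with GW8510, 2153, 2326 and 2484 at PD30, and 3696, 3510 and 3736 in the PD45 control. GW8510 and PD30 overlapped below the control, with a share of 119.6% ± 12.1 (log2 difference -0.13, SE 0.07, adjusted p = 0.144). TMEM59, a Golgi membrane protein, had 227 ± 16.6 with GW8510, 231 ± 24.1 at PD30 and 369 ± 8.77 in the PD45 control, and RAI14, an actin-associated protein, had 111 ± 10.4 with GW8510, 118 ± 5.57 at PD30 and 190.2 ± 24.1 in the PD45 control. PLP2, a membrane proteolipid, was higher in both groups, with 189 ± 14.9 with GW8510, 182 ± 16.5 at PD30 and 107 ± 10.6 in the PD45 control. None of these was told apart from PD30. The difference of B2M stayed negative in every setting, and the small differences of the others changed sign between settings. S100A10 turned to -0.04 without GW8510 replicate 3, PLP2 to -0.01 without PD30 replicate 2, RAI14 to 0.01 with the authors' scaling, and TMEM59 to 0.04, 0.06 and 0.08 without GW8510 replicate 3, without PD30 replicate 2 and with that scaling. TXNIP, the thioredoxin inhibitor, had 52.4, 58.5 and 63.96 with GW8510, 55.1, 57.5 and 58.4 at PD30, and 95.9, 106 and 105 in the PD45 control, a share of 96.7% ± 10.2, and turned to -0.04 without GW8510 replicate 3.

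Of the 30 overshot genes, 26 were low at PD30. The 6 overshot genes farthest past PD30 were VAT1L, UACA, SVIL, COL5A3, SLC14A1 and FAXDC2. VAT1L, related to the synaptic vesicle amine transport protein VAT1, had 2.58, 3.5 and 3.11 with GW8510, 7.8, 8.06 and 7.38 at PD30, and 18.6, 15.8 and 12.1 in the PD45 control, with no overlap and a share of 224% ± 27.1 (log2 difference -1.11, SE 0.15, adjusted p = 2.22e-05). UACA, an autoantigen with ankyrin repeats linked to apoptosis, had 27.2, 20.9 and 23.5 with GW8510, 44.3, 56.5 and 47.3 at PD30, and 93.3, 101 and 74.4 in the PD45 control, and SVIL, supervillin, which links actin and myosin to membranes, had 22.2, 20.1 and 20.9 with GW8510, 37.7, 36.1 and 40.3 at PD30, and 79.8, 68.8 and 55.1 in the PD45 control. In all 3 genes the PD30 libraries stood between GW8510 and the control, and UACA and SVIL had shares of 221% ± 35.2 and 202% ± 22.97. SLC14A1, a urea transporter, and FAXDC2, a fatty acid hydroxylase family member, had shares of 186% ± 34.5 and 215% ± 38.2, and for SLC14A1 the authors' deposited tables gave 297%. COL5A3, a fibrillar collagen chain, was the member of the 6 that was high at PD30, with 6.71, 6.45 and 6.87 with GW8510, 3.99, 3.15 and 3.65 at PD30, and 1.96, 2.04 and 1.68 in the PD45 control and a share of 212% ± 26.5 (log2 difference 0.74, SE 0.12, adjusted p = 0.000105).

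Other overshot genes depended on single libraries. DLL4, a Notch ligand, had 2.48, 2.36 and 2.75 with GW8510, 3.96, 3.17 and 4.44 at PD30, and 15.9, 11.3 and 11.8 in the PD45 control, a share of 129.8% ± 10.5 (log2 difference -0.45, SE 0.15, adjusted p = 0.0182). Its call was lost without GW8510 replicate 2 (limma adjusted p = 0.0568), PD30 replicate 1 (0.0559) or PD30 replicate 3 (0.0799). HSP90AA1, the inducible cytosolic HSP90, had 244, 179 and 220.3 with GW8510, 244, 303 and 294 at PD30, and 556, 520.3 and 485 in the PD45 control, a share of 143% ± 21.6, and its call was lost without GW8510 replicate 2 (limma adjusted p = 0.0654) and with the authors' scaling (0.0531). PAPPA, a protease that frees IGFs from their binding proteins, closed 160% ± 19.6. It lost its call without GW8510 replicate 2 (limma adjusted p = 0.124), PD30 replicate 1 (0.0751), 2 (0.0820) or 3 (0.0691) and with the authors' scaling (0.117). SPOCK1, a matrix proteoglycan, closed 382% ± 415, a value with little precision because its gap in signal was small, against 155% from the authors' deposited tables, and lost its call without GW8510 replicate 2 (limma adjusted p = 0.0591) or PD30 replicate 1 (0.0708). ETV1, an ETS factor downstream of ERK, closed 294% ± 176, against 177% from the authors' deposited tables, and lost its call without GW8510 replicate 1 (limma adjusted p = 0.0548) or PD30 replicate 3 (0.0572).

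The 6 widened genes with the largest distance between GW8510 and PD30 were CD36, CTHRC1, CEACAMP10, ANKRD1, SERPINB7 and PCK2. CD36, a receptor that takes up fatty acids, had 19.3, 26.4 and 27.2 with GW8510, 1.11, 0.85 and 0.74 at PD30, and 9.24, 6.51 and 7.73 in the PD45 control. GW8510 cells were above every control library and PD30 cells below every one, so the gene was 27.04-fold higher with GW8510 than at PD30. CTHRC1, a secreted protein of collagen-producing fibroblasts, had 24.1, 23.7 and 26.8 with GW8510, 264, 291 and 270.5 at PD30, and 128, 122 and 131 in the PD45 control, the reverse order, and was 11.1-fold lower with GW8510 than at PD30, with a share of -208% ± 12.2. PCK2, the mitochondrial form of PEPCK, had 3.64, 3.43 and 4.02 with GW8510, 34.4, 35.4 and 34.7 at PD30, and 4.9, 7.04 and 7.07 in the PD45 control. PD30 stood apart there, and GW8510 was below the control in every library. PSAT1 of serine synthesis and ASNS, asparagine synthetase, both targets of the amino acid stress factor ATF4, followed the same order, with 12.6, 13.3 and 15.9 with GW8510, 91.8, 87.2 and 86.3 at PD30, and 20.1, 22.2 and 28.96 in the PD45 control for PSAT1 and 5.94, 5.86 and 7.49 with GW8510, 54.7, 52.5 and 59.3 at PD30, and 12.6, 13.3 and 17.3 in the PD45 control for ASNS. Their shares were -38.5% ± 12.3 and -55.5% ± 12.1.

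Genes low at PD30 that rose further with GW8510 included SERPINB7, a protease inhibitor, with 72.8, 83.9 and 55.8 with GW8510, 8.68, 8.31 and 7.71 at PD30, and 43.3, 44.5 and 41.6 in the PD45 control. ANKRD1, a target of YAP in stretched cells, had 12.9, 10.2 and 7.34 with GW8510, 0.23, 0.45 and 0.35 at PD30, and 10.2, 6.67 and 4.93 in the PD45 control. Its GW8510 libraries overlapped the control on this scale, and its distance from PD30 was set mainly by PD30. KRT19, a keratin of simple epithelia, had 249, 251 and 204 with GW8510, 32.5, 29.1 and 32.8 at PD30, and 123, 148 and 134 in the PD45 control, and KRT34, a hair keratin with close paralogs, had 9.26 ± 1.61 with GW8510, 2.31 ± 0.52 at PD30 and 4.81 ± 0.225 in the PD45 control. CEACAMP10, a pseudogene that may share reads with its family, had 10.1 ± 1.86 with GW8510, 0.24 ± 0.151 at PD30 and 5.59 ± 1.16 in the PD45 control. Keratins did not all move one way: KRT17 closed 62.8%. SLC17A9, a vesicular nucleotide transporter, had 16.7, 16.6 and 16.3 with GW8510, 1.32, 1.42 and 1.17 at PD30, and 8.76, 7.85 and 9.11 in the PD45 control, a share of -42.5% ± 4.12 without overlap between any groups. TRPA1, a cation channel of sensory neurons, was high at PD30 with 4.36, 4.15 and 7.94 with GW8510, 26.7, 30.3 and 31.7 at PD30, and 17.2, 14.9 and 21.04 in the PD45 control, and closed -219% ± 74.0.

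**Figure D4:**
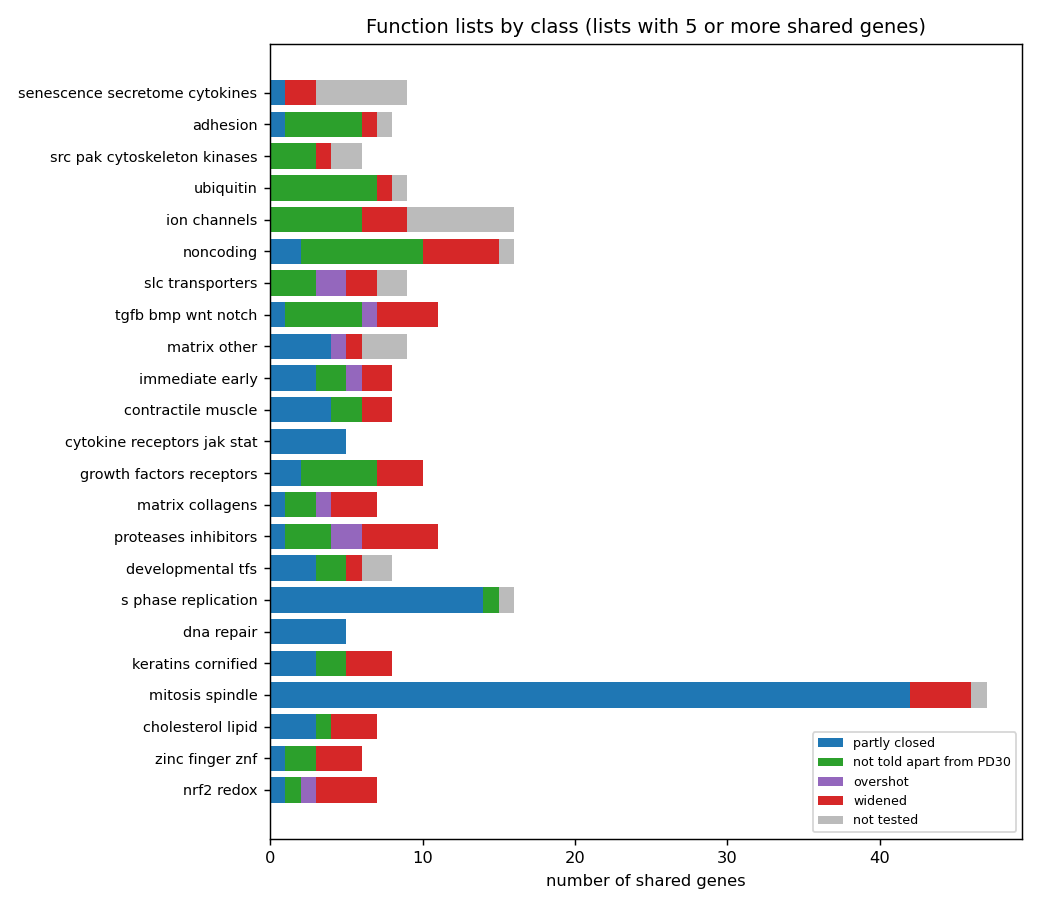
Number of shared genes in each of the 23 function lists with at least 5 members, split by class from the direct comparison and ordered by median share from top to bottom. Partly closed genes (blue) make up 42 of 47 in mitosis, genes not told apart from PD30 (green) 7 of 9 in ubiquitin, and widened genes (red) 4 of 7 in the NRF2 and redox list. Over all 606 shared genes these classes hold 159, 184 and 154.

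Metallothioneins and redox genes leaned away from PD30. The list of NRF2 targets and redox enzymes held 7 shared genes, of which MT2A, MT1E, ABCC3 and ALDH1A3 were widened, GPX3 was partly closed, TXNIP was not told apart and NOX4 was overshot. Its median share was -90.3%, against 55.9% over all shared genes, and -73.3% from the authors' log2 fold changes. MT2A, a metal-binding protein induced by zinc and copper, had 2241, 2035 and 1866 with GW8510, 9303, 9264 and 9872 at PD30, and 5395, 4540.1 and 4431 in the PD45 control. Every GW8510 library was below every control library, which was below every PD30 library, a share of -124% ± 21.9, and MT2A was 4.63-fold lower with GW8510 than at PD30. MT1E, whose reads may be shared with near-identical copies, had 148, 139 and 120.1 with GW8510, 389, 406 and 397 at PD30, and 263, 222 and 243 in the PD45 control, a share of -118% ± 24.8. NOX4, an NADPH oxidase, had group means of 0.743 ± 0.425 with GW8510, 1.54 ± 0.389 at PD30 and 1.58 ± 0.406 in the PD45 control, so its gap on these signals was close to 0 and its share cannot be read. The call of NOX4 was lost without GW8510 replicate 3 (limma adjusted p = 0.0900), PD30 replicate 1 (0.0531) or PD30 replicate 2 (0.0701).

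The MT2A promoter is printed because its window is dense in the metal response element core TGCNCNC, through which the zinc sensor MTF1 acts. Capitals mark matches on either strand in the RefSeq window at chr16:56608334-56608633 on the plus strand of GRCh38.p14.
MT2A: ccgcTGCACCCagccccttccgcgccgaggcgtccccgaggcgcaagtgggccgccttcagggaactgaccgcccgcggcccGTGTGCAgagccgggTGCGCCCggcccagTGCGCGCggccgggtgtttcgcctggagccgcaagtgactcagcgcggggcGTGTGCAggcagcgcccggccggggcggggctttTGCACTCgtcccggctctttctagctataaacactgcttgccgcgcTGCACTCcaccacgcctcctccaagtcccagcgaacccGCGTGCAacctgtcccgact
The window holds 8 matches, a number reached by 24 of 27305 RefSeq windows (0.0879%), whose median is 1. No metal was measured, and a match is again only a run of letters.

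Collagen genes moved both toward PD30 and away from it, and most other matrix genes moved toward it. COL3A1, type III collagen of the dermis and lung, had 182, 188 and 236 with GW8510, 397, 372 and 361 at PD30, and 108, 114 and 122 in the PD45 control, a share of 46.99% ± 7.14 with GW8510 between the other groups in every library. ELN, elastin, had low signals in the PD45 control, with 2.3, 3.17 and 2.91 with GW8510, 4.03, 4.0 and 4.23 at PD30, and 0.47, 0.71 and 0.62 in the PD45 control, a share of 74.3% ± 6.17 (log2 difference -0.43, SE 0.13, adjusted p = 0.0089). COL7A1, the collagen of anchoring fibrils, POSTN, periostin, and P4HA3, a collagen prolyl hydroxylase, were high at PD30 and lower with GW8510 than in the control. POSTN had 1.33, 1.59 and 1.96 with GW8510, 9.58, 11.9 and 11.9 at PD30, and 4.23, 6.71 and 5.43 in the PD45 control, a share of -139.6% ± 45.8, while COL7A1 closed -70.9% ± 31.9 and P4HA3 -39.5% ± 6.31. The 7 shared collagen genes had 1 partly closed, 2 not told apart, 1 overshot and 3 widened members. Over all 527 tested genes the counts were 159, 184, 30 and 154 in that order. Of 9 shared matrix genes other than collagens, 8 moved toward PD30, against 438 of all 606, and only POSTN moved away. Of the 6 tested, 4 were partly closed, 1 overshot and 1 widened. PLAT, tissue plasminogen activator, had 48.8, 54.1 and 69.4 with GW8510, 297, 256 and 282 at PD30, and 131, 133 and 138 in the PD45 control, and TFPI, the inhibitor of the tissue factor pathway, had 21.6, 17.9 and 29.3 with GW8510, 58.98, 56.4 and 58.6 at PD30, and 37.1, 38.6 and 37.7 in the PD45 control. Both were highest at PD30 and lowest with GW8510, with shares of -117% ± 16.5 and -120% ± 33.7. Of the 11 shared genes for proteases and their inhibitors, 6 moved toward PD30 and 5 away from it.

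Growth factor and feedback genes held members of every class. Of 10 shared growth factor and receptor genes 5 were not told apart from PD30, 2 partly closed and 3 widened. Over all 527 tested genes the counts were 184, 159 and 154. FGF5, a fibroblast growth factor, had 14.1, 12.8 and 14.03 with GW8510, 15.4, 13.1 and 18.5 at PD30, and 22.1, 21.97 and 22.4 in the PD45 control (log2 difference -0.18, SE 0.12, adjusted p = 0.238), and its GW8510 and PD30 libraries overlapped below the control. PTN, pleiotrophin, had 20.7, 17.8 and 22.5 with GW8510, 83.0, 89.8 and 87.04 at PD30, and 44.6, 42.2 and 45.1 in the PD45 control, a share of -112% ± 12.5 without overlap. Among immediate-early and ERK feedback genes, all 8 were lower at PD30. DUSP4, a phosphatase of ERK, closed 45.2% ± 8.32, and the related DUSP6 77.4% ± 5.87, which was not told apart (log2 difference 0.26, SE 0.11, adjusted p = 0.0612) except without PD30 replicate 3 (limma adjusted p = 0.0346), without PD45 control replicate 1 (0.0448) or with the authors' scaling (0.0136). DUSP5 and the stress factor ATF3 moved away, with 52.5, 57.6 and 58.2 with GW8510, 20.2, 21.2 and 25.7 at PD30, and 34.3, 34.5 and 34.03 in the PD45 control for DUSP5 and 37.8, 50.4 and 46.5 with GW8510, 15.4, 18.3 and 19.7 at PD30, and 25.3, 30.2 and 26.4 in the PD45 control for ATF3.

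Ligands and antagonists of TGF-beta and BMP signalling also fell in several classes. Of 11 shared genes of the TGF-beta, BMP, WNT and Notch list, 5 were not told apart, 4 widened, 1 overshot and 1 partly closed. Over all 527 tested genes the counts were 184, 154, 30 and 159 in that order. NOG, noggin, and GREM1, gremlin, are both secreted BMP antagonists and went in opposite directions. NOG had 10.2, 8.63 and 9.74 with GW8510, 2.31, 2.56 and 2.73 at PD30, and 4.37, 4.79 and 3.63 in the PD45 control, highest with GW8510 and lowest at PD30, and GREM1 had 295, 248 and 303 with GW8510, 727, 786 and 822 at PD30, and 549, 466 and 425 in the PD45 control, the reverse. Their shares were -176% ± 49.6 and -109% ± 35.4. TGFB3, a TGF-beta ligand, closed -153% ± 35.4. In IGF signalling IGFBP2, a binding protein, had 6.2, 6.6 and 8.65 with GW8510, 8.05, 7.36 and 8.47 at PD30, and 15.8, 18.1 and 18.1 in the PD45 control, a share of 114% ± 13.8 with overlap of GW8510 and PD30, IGFBP3 closed 64.1% ± 7.75, and IRS2, an insulin receptor adaptor, closed -118% ± 64.04.

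Lipid genes were low at PD30 in 6 of 7 cases. FABP4, a fatty acid carrier, had 42.2, 41.8 and 32.9 with GW8510, 19.9, 23.6 and 25.6 at PD30, and 90.5, 92.5 and 88.9 in the PD45 control, and FABP3, its heart-type relative, had 19.8, 12.1 and 10.4 with GW8510, 2.45, 2.68 and 4.02 at PD30, and 25.7, 24.8 and 17.3 in the PD45 control. Both were partly closed, with shares of 62.2% ± 6.76 and 26.5% ± 11.5. MVK and MVD, enzymes of the mevalonate pathway to cholesterol, rose with GW8510, with 124, 115 and 133 with GW8510, 46.3, 40.03 and 42.5 at PD30, and 92.3, 75.6 and 85.3 in the PD45 control for MVD and 22.1 ± 1.68 with GW8510, 9.73 ± 0.611 at PD30 and 14.7 ± 1.28 in the PD45 control for MVK. Their shares were -57.5% ± 15.4 and -102% ± 28.4, so GW8510 and PD30 lay on opposite sides of the control for these enzymes. SREBF1, a regulator of lipid synthesis, had a share of 119% ± 30.1 and was not told apart from PD30.

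Among zinc finger genes 3 of 6 moved toward PD30, against 438 of all 606. Their median share was -0.14%, which became 14.7% with the authors' log2 fold changes. Of 16 ion channel genes 12 moved toward PD30, 7 were below the signal minimum, and 6 of 9 tested were not told apart, against 184 of 527 over all tested genes. TRPM7, a channel with a kinase domain, had a share of 173% ± 65.6 and was not told apart (log2 difference -0.38, SE 0.16, adjusted p = 0.0504), but was called without PD30 replicate 3 (limma adjusted p = 0.00499), with a pseudocount of 0.1 (0.0495) and when the signal minimum was raised to 5 (0.0445). Of 16 named noncoding genes 8 were not told apart, 2 partly closed and 5 widened, against 184, 159 and 154 of all 527 tested. THBS1-IT1, which lies within the thrombospondin 1 gene and whose reads may come from it because the strand of counting is not stated, had 11.95 ± 0.863 with GW8510, 2.54 ± 0.406 at PD30 and 6.54 ± 0.484 in the PD45 control, a share of -71.2% ± 11.5. No shared gene came from the lists of mitochondrially encoded transcripts, ribosomal proteins or RNA processing factors. The 330 genes in no list had a median share of 65.7%. Of 28 lists with at least 3 shared genes, 26 had a median share above 0. With 438 of all 606 genes moving toward PD30 and a median share of 55.9% over all, that count says little about function.

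PSG1 and LCE2C showed large gaps that GW8510 narrowed. PSG1, a pregnancy-specific glycoprotein with near-identical relatives, had 24.9, 25.3 and 17.7 with GW8510, 1.85, 0.88 and 1.43 at PD30, and 43.4, 46.5 and 31.02 in the PD45 control, a share of 19.5% ± 5.29. LCE2C, a cornified envelope protein from a family of close copies, had 7.58, 5.45 and 1.94 with GW8510, 0.39, 0.15 and 0.13 at PD30, and 15.2, 12.9 and 9.89 in the PD45 control, a share of 37.6% ± 13.7 (20.5% from the authors' deposited tables), with 1 GW8510 library well below the other two.

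The direction of change went with gene length and base composition, which the choice of genes did not use. By GENCODE v29, with 600 of the 606 genes matched, genes higher in both GW8510 and PD30 cells had a median span of 18.1 kb and a median transcript GC of 53%. Genes lower in both had 80.7 kb and 44.2%. Genes higher with GW8510 and lower at PD30 had a median of 24.7 kb and 54.3%, and those lower with GW8510 and higher at PD30 had 48.0 kb and 44.8%. Median GC thus went with the GW8510 direction in all 4 sets, while the span of the last set lay between the others. Among genes lower at PD30, the 132 not told apart from PD30 had a median span of 83.3 kb, the 26 overshot genes 92.3 kb, and the 50 partly closed genes 36.9 kb. Span and GC are given as medians over genes, which are not replicates, and their part in the shares was not tested.

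**Figure D5:**
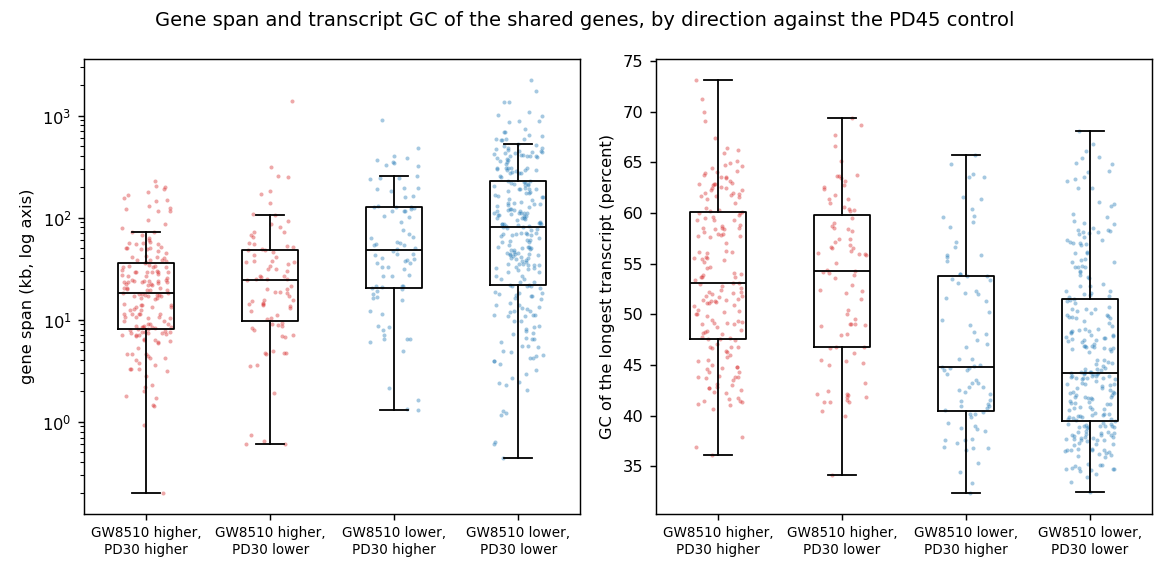
Gene span (kilobases, log axis, left) and GC of the longest transcript (percent, right) for the 600 matched genes by direction against the PD45 control, with boxes for the quartiles, whiskers to the last point within 1.5 times the box height, and points for genes. Genes higher with GW8510 (red) have medians of 18.1 and 24.7 kb and 53% and 54.3% GC, and genes lower with GW8510 (blue) 48.0 and 80.7 kb and 44.8% and 44.2% GC.

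Part of the shared genes also appeared in the siRNA tables of the series. Of the 606 genes 62 (10.2%) were in the authors' deposited table for siSRC2 and 139 (22.9%) in that for siSRC4, with 22 in both. They are 18.7% of the 331 genes listed for siSRC2 and 10.9% of the 1280 listed for siSRC4, tables that list 2.64% and 8.77% of all genes the authors tested. All these comparisons share the PD45 control, so values are given side by side without a test. In the authors' deposited tables PSG1 had log2 fold changes of -0.87 with GW8510, -1.35 with siSRC2, -0.64 with siSRC4 and -5.16 at PD30. FGFR4, a fibroblast growth factor receptor, had 1.34 with GW8510, 0.79 with siSRC2, 0.99 with siSRC4 and 2.04 at PD30 in the authors' deposited tables. Both genes moved toward PD30 in all 3 PD45 groups, and IL7R, FABP3 and FABP4 did so as well. CXCL12 moved away from PD30 with GW8510 (-1.73) and toward it with siSRC2 (0.81) and siSRC4 (0.85), against 1.85 at PD30, by the authors' deposited tables. P4HA3 did the same, with -1.09, 1.48, 1.19 and 2.10 in the same order. TRPA1 had -1.53 with GW8510, 0.66 with siSRC2, -1.39 with siSRC4 and 0.82 at PD30 in the authors' deposited tables, so the siRNA groups differed in sign.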

How the data were processed

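RNA was sequenced from 3 libraries per group of WI-38 cells. The authors tested each group against the PD45 control and deposited the genes that passed both of their thresholds, a 1.5-fold change and 0.05 for the adjusted p, which was checked on the files. Per the file headers, the deposited tables hold the authors' fold ratio, log2 fold change, p-value and adjusted p-value, and a normalized expression signal per library that is not named as TPM or FPKM. The submitters' processing notes list, with no roles or versions, edgeR, DESeq2, StringTie, RSEM, HISAT2 and CASAVA, and the mouse build GRCm38, while the identifiers are human Ensembl ones. No coordinates were therefore taken from the files. Read depth is unknown, so no counting interval is given, and the 3 libraries per group limit the precision. The number of genes the authors tested was derived from the ratio of adjusted to raw p in the deposited tables, assuming that the first entry holds the smallest p.

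Genes in both tables were joined by identifier in Python 3.11.15 with pandas 2.3.3 and numpy 2.4.6, and PD45 control values were identical in both tables (0 differing). For GW8510 against PD30, log2(signal + 1) was fitted by limma (version 3.58.1, R 4.3.3), its prior variance following the mean, over 9 libraries in 3 groups and all genes averaging 1 or more. A fold change on that scale understates the change of low genes. On simulated data over 527 genes this comparison called 85 of 100 genes changed 1.5-fold, 99 of 100 changed 2-fold and 8 of 327 unchanged ones. A gene is partly closed, not told apart or overshot by the direct test, and widened by opposite signs of the authors' log2 fold changes. For 2 genes, 1 of them ARMCX4, the sign of the share differs from those signs. Alternatives were a pseudocount of 0.1, no signal minimum or one of 5, 6 libraries, a replicate block, the authors' scaling and leaving out each library. Same-numbered libraries paired weakly if at all. The correlation of their deviations ran from -0.0726 to 0.225 and passed 0.1 in 3 of 9 pairs, all with a GW8510 library. For libraries of other numbers it ran from -0.260 to 0.128 and passed 0.1 in 2 of 18 pairs.

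The members, the 42 function lists and the tests were chosen with earlier results of these data known. Named genes are the 6 overshot, widened and partly closed genes with the largest contrasts, the 6 genes with a share of 80% to 120% and the highest signal, and the highest and lowest share of each list with at least 3 members at a signal of 5, which gave 73 genes, of which some are not reported here. The other named genes were chosen after their values were seen. Span, length and GC came from GENCODE v29 and promoter windows from RefSeq.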

Additional observations from a re-analysis of the deposited data

How the results depend on the processing

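The number of genes called between GW8510 and PD30 was 343, and 323 to 348 when 1 library was left out. It was 345 with a pseudocount of 0.1, 368 with no signal minimum, 345 with 6 libraries and 344 with the authors' scaling. With the replicate number as a block it was 344, so the block changed little. With a mean signal of at least 5, fewer genes were tested and 219 were called, 126 of them lower with GW8510, with 98 partly closed, 97 not told apart and 97 widened. Leaving out 1 library gave 144 to 164 partly closed, 179 to 203 not told apart and 21 to 32 overshot genes. The median share over all genes was 50.8% to 57.5% on leaving out 1 library, lowest without GW8510 replicate 3. For genes higher in both groups the median share was 44.8% to 52.9% without 1 library, 61.3% from the authors' log2 fold changes, 38.5% on linear signal and 56.9% with the authors' scaling. For genes lower in both it was 94.2% to 100.7% without 1 library, 90.1% from the authors' log2 fold changes and 88.1% with their scaling. The cause of these shifts was not tested.

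Of 120 named genes tested under 15 alternatives, 90 kept their direction and side of the threshold in all, 12 lost a call and 6 gained one in at least 1 alternative. The 12 genes that changed sign were not told apart from PD30 to begin with. With the authors' scaling the log2 difference became 0.08 for TMEM59, 0.0125 for RAI14, 0.0622 for ARHGAP5, 0.0095 for TRHDE-AS1, 0.0003 for EREG and 0.0649 for KITLG. On leaving out 1 library at a time the log2 difference ran from -0.0361 to 0.0864 for S100A10, -0.0682 to 0.0615 for TMEM59, -0.0108 to 0.1189 for PLP2, -0.1545 to 0.0537 for ARHGAP5 and -0.0409 to 0.184 for SREBF1. It ran from -0.0401 to 0.1007 for TXNIP, -0.3499 to 0.0631 for OSR2, -0.1498 to 0.0128 for EREG, -0.0224 to 0.1356 for INHBA and -0.121 to 0.0433 for KITLG. With only members at a signal of 5 or more, 24 of 27 lists had a median share above 0. Of all 391 shared genes at that signal, 273 moved toward PD30.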
